A study of Mus musculus with 6 samples.

Results

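The 10 replication licensing genes examined here are Mcm2, Mcm3, Mcm4, Mcm5, Mcm6, Mcm7, Cdc6, Cdt1, Gmnn and Pcna, and they were taken by gene symbol from a table of 30236 genes measured by RNA-seq in mouse liver tumors. Each had 1 row, and all 10 were among the 22677 genes tested, after the 25% of genes with the lowest means had been set aside. In these tumors 9 of the 10 genes had a lower mean in Top1mt-KO than in WT tumors, by at most 0.52 on the log2 scale. Of all genes tested, 52.3% had a lower mean in Top1mt-KO. By limma 0 of the 10 passed an adjusted p of 0.05, as did 0.0% of all genes tested. WT replicate 3 was the highest library for 8 of the 10 genes, against 16.7% of all genes tested. Without it 6 of the 10 had the lower mean in Top1mt-KO.

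RNA was sequenced from 3 WT and 3 Top1mt-KO liver tumors of male C57BL/6 mice. The knockout mice lack Top1mt, the topoisomerase of mitochondria, in the whole body, and WT littermates were the controls. All mice of both groups received diethylnitrosamine, a liver carcinogen, on postnatal day 14, and carbon tetrachloride, which injures the liver, 2 times a week for 14 weeks from 8 weeks of age, and tumors were collected at 22 weeks. The paper calls the tumors independent and matched in size. The labels do not say whether the 3 tumors of a group came from separate mice, so p-values measure only the spread between these samples, which may be technical in part.

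Licensing is the step that prepares chromosomes for a single round of DNA copying. Before S phase, the origin recognition complex together with Cdc6 and Cdt1 loads rings made of Mcm2 to Mcm7 onto DNA, and these rings later form the core of the replicative helicase. Geminin, encoded by Gmnn, binds Cdt1 once copying has begun and so blocks new loading, while the sliding clamp Pcna holds polymerases on DNA and marks Cdt1 for degradation. Most hepatocytes of an adult liver are quiescent and hold little Mcm protein, and the genes are switched on when these cells re-enter the cell cycle, in part through E2F factors.

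Expression is given on the log2 scale of the table the authors deposited, which resembles a regularized log, so that differences in weakly expressed genes are compressed. Fold changes are differences of mean log2 values, KO minus WT, followed by ± their standard error (SE) from limma. The depth of the libraries is unknown. Top1mt itself had log2 values of 7.71, 5.99 and 8.01 in WT replicates 1 to 3 and 5.58, 6.41 and 6.32 in KO replicates 1 to 3, so the library labelled WT replicate 2 went against its label, and directions below rest on the labels. In KO replicate 1 the transcript Gm42418 made up 17.7% of the values summed on the linear scale, against at most 0.387% elsewhere. Hepatocyte markers were abundant in every library, with a summed log2 level from 20.6 to 21.5. The tumors are bulk tissue, in which fewer cells of a type and less RNA per cell cannot be told apart.

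Promoter windows from RefSeq on GRCm38.p6, reaching from 250 bases before to 50 bases after a transcription start, were available for 8 of the 10 genes in 9 windows. Mcm4 and Gmnn have no entry. The windows were searched on both strands for 4 short motifs, and a position is counted with 0 at the first transcribed base. The E2F-type letters were TTTCCCGC, TTTGGCGC, TTTCGCGC and TTTGCCGC, with overlapping matches merged. They occurred in 6 of the 9 windows, those of Mcm3, Mcm5, Mcm6, Mcm7, Cdc6 and Cdt1, against 2.26% of 32851 windows of all genes. The 4 motifs are elements known from cell cycle promoters and were picked after these and other motifs had been looked at, so the shares are a description. The matches are shown with their flanks because E2F factors are known to act on these genes. Capitals mark the match.
Mcm3, chr1:20820275-20820304, minus strand: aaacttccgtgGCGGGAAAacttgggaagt
Mcm3, chr1:20820263-20820285, minus strand: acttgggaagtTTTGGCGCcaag
Mcm5, chr8:75109345-75109378, plus strand: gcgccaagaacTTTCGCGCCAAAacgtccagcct
Mcm6, chr1:128359793-128359826, minus strand: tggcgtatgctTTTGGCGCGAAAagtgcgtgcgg
Mcm6, chr1:128359734-128359763, minus strand: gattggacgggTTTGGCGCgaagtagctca
Mcm7, chr5:138172030-138172059, minus strand: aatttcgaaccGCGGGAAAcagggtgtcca
Mcm7, chr5:138171849-138171878, minus strand: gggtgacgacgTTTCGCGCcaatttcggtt
Cdc6, chr11:98908002-98908031, plus strand: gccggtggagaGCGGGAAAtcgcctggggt
Cdt1, chr8:122568036-122568064, plus strand: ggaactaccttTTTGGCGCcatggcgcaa
The match in Mcm5 spanned positions -153 to -142 and the longer match in Mcm6 -110 to -99, and each consists of a forward and a reverse match that overlap. The other match in Mcm6 lay at -47 to -40. In Mcm7 matches began at -165 and at 16, and the last base of the latter is also the first base of a CCAAT match. The Cdc6 match began at -138, while those of Mcm3, at 19 and 38, and of Cdt1, at 32, lay downstream of the RefSeq start. In the GENCODE M21 annotation Cdc6 begins further upstream, at chr11:98907801, as does Mcm7, at chr5:138172422. By those coordinates the Cdc6 match and the Mcm7 match at -165 lie inside the gene.

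The Mcm2 and Mcm6 windows are shown up to the start to set a promoter with 0 E2F-type matches beside one with 2. Mcm2 is also the only member whose groups did not overlap, while Pcna, with 0 matches too, had groups that overlapped. A link between these letters and expression was not tested. Capitals again mark E2F-type letters.
Mcm2, chr6:88898781-88899030, minus strand: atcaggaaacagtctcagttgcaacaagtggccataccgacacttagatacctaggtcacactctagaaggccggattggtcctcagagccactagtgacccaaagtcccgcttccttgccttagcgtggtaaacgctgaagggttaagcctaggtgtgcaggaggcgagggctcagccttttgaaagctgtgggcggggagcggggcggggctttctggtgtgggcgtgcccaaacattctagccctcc
Mcm6, chr1:128359706-128359955, minus strand: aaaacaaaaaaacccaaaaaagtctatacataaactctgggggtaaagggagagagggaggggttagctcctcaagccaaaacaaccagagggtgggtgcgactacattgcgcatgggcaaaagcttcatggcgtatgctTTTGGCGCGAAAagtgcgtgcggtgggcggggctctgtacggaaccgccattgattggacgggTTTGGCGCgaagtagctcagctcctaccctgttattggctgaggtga
The letters CCAAT occurred in 7 of the 9 windows against 37.4% of all windows, and the GC box GGGCGG in 7 of the 9 against 35.7%. The letters TTTGAA of the CHR, an element known from genes of late cell cycle phases, occurred in 1 of the 9, that of Mcm2 at -70, against 17.9%. The Mcm2 window also held CCAAT letters at -175 and GC boxes at -58 and -46. The Pcna window held CCAAT letters at -87 and GC boxes at -203 and -116. A match is a run of letters and not a measured binding site, and the absence of a match says only that these letters are not in the window.

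**Figure D1:**
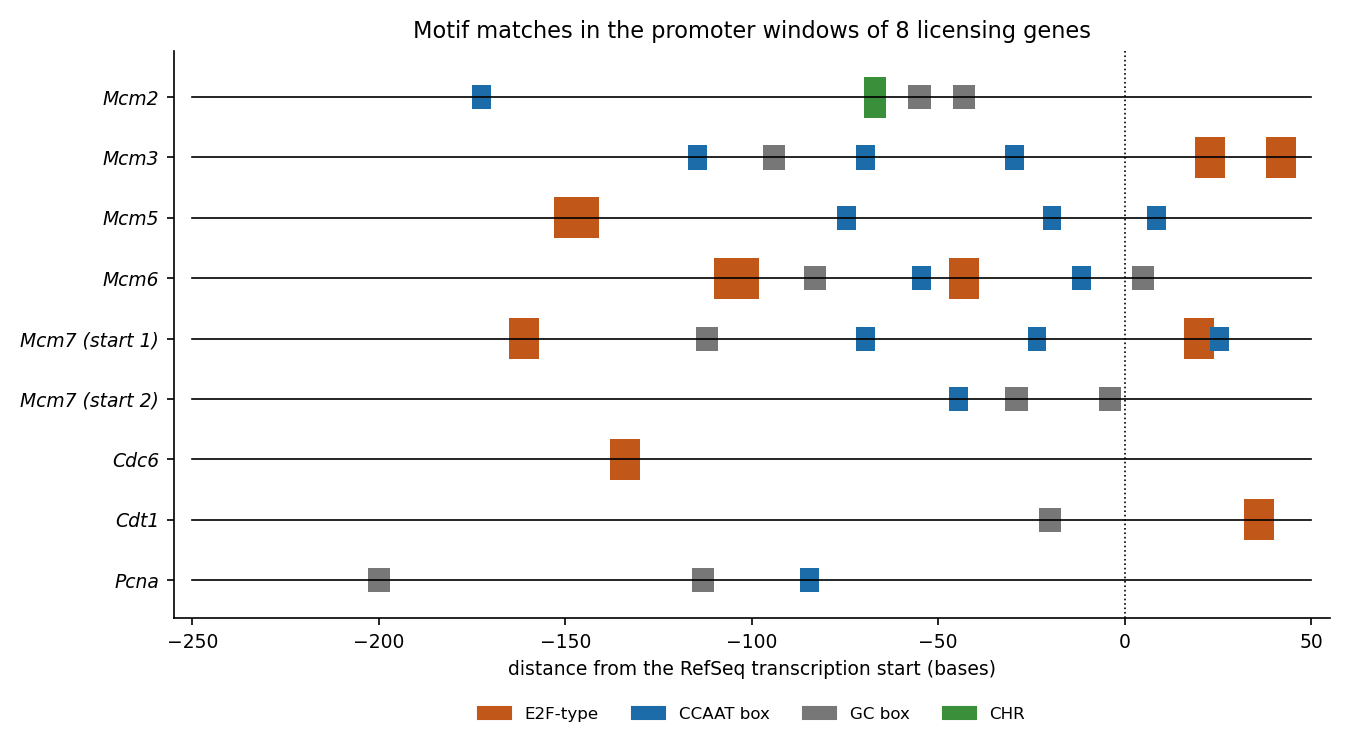
Matches to 4 motifs in 9 promoter windows of 8 licensing genes. The x axis gives the distance from the RefSeq transcription start in bases, each row is 1 window, and coloured boxes are E2F-type, CCAAT, GC box and CHR letters. E2F-type letters occur in 6 windows, both before and after the start, and are not found in the windows of Mcm2, Pcna and the other Mcm7 start.

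To compare levels between genes, the log2 values were expressed per kilobase of the principal transcript in GENCODE M21. On that scale Pcna was the most abundant, with a mean log2 level per kilobase of 7.98 ± 0.12 (SD over 6 libraries), 2.66-fold above the next gene and above it in 6 of 6 libraries. Mcm7 at 6.57 ± 0.30 and Mcm6 at 6.45 ± 0.38 followed and differed by less than their SD. Gmnn at 6.02 ± 0.46, Mcm2 at 5.68 ± 0.37 and Mcm3 at 5.62 ± 0.28 came next, and each lay within 1 SD of its neighbour. Mcm2 was above Mcm3 in only 3 of 6 libraries. Mcm5 at 5.22 ± 0.30 and Mcm4 at 4.95 ± 0.50 were the least abundant of the helicase genes by this measure and differed by less than the SD of Mcm4. The loading factors stood lowest, with Cdt1 at 4.28 ± 0.40 and Cdc6 at 3.24 ± 0.64, and Cdt1 was above Cdc6 in 6 of 6 libraries. The 6 helicase subunits, which form a ring with 1 copy of each, spanned from 4.95 to 6.57. The place of Mcm2 depended on the length used: with the length of all its annotated exons joined, 6956 bases instead of 3371, its mean was 4.64.

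The helicase subunits were compared first. Mcm2, which with Mcm5 forms the gate through which DNA enters the ring (ENSMUSG00000002870, GRCm38 chr6:88883474-88898780, minus strand), had log2 values of 7.49, 7.52 and 8.08 in WT replicates 1 to 3 and 6.998, 7.18 and 7.35 in KO replicates 1 to 3. Every Top1mt-KO library was below every WT library. Mcm2 was the only member without overlap, a state reached in 8.28% of all genes tested and in the lower direction in 4.33%. WT tumors averaged 7.70 ± 0.34 and Top1mt-KO tumors 7.17 ± 0.18 (SD, n = 3 each). This is a log2 fold change of -0.52 ± 0.22, with a 95% confidence interval from -1.03 to -0.016, and a level 0.696 times that of WT. Its unadjusted p from limma was 0.0448 and its adjusted p over all genes 0.999. By the exact two-sided permutation test p was 0.1, the smallest that 3 against 3 allow. Among all genes tested 4.34% had an unadjusted p under 0.05, 2.56% lower and 1.79% higher in KO, and 1 of 10 genes at that level is not a result about the members. Without WT replicate 3 the log2 fold change of Mcm2 was -0.33, and without KO replicate 1 it was -0.43.

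Mcm4 (ENSMUSG00000022673, chr16:15623897-15637400, minus strand), which with Mcm6 and Mcm7 forms a core with helicase activity, had log2 values of 6.86, 6.47 and 7.67 in WT and 6.40, 6.38 and 6.96 in KO. WT replicate 3 stood above the other 5 libraries, while KO replicate 3 exceeded WT replicates 1 and 2. Its log2 fold change of -0.42 ± 0.34 (exact permutation p = 0.5) shrank to -0.081 without WT replicate 3 and was -0.68 without WT replicate 2. Mcm3 (ENSMUSG00000041859, chr1:20802968-20820312, minus strand), the partner of Mcm5 in a stable pair, had log2 values of 7.44, 7.03 and 7.54 in WT and 6.93, 6.92 and 7.44 in KO. The KO group held 2 low libraries and 1 at the level of WT, for a log2 fold change of -0.24 ± 0.23 (exact permutation p = 0.3). It moved to -0.14 without WT replicate 3, -0.15 without KO replicate 1 or KO replicate 2, -0.39 without WT replicate 2 and -0.41 without KO replicate 3.

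Mcm5 (ENSMUSG00000005410, chr8:75109569-75128439, plus strand) had log2 values of 7.01, 6.65 and 7.49 in WT and 6.90, 7.06 and 6.75 in KO. Mcm6 (ENSMUSG00000026355, chr1:128331590-128359664, minus strand) had log2 values of 8.22, 7.44 and 8.50 in WT and 7.72, 8.14 and 7.89 in KO. In both genes the highest and the lowest of the 6 libraries were WT libraries, replicate 3 and replicate 2, with the KO values between them. Mcm5 had a log2 fold change of -0.15 ± 0.25 and Mcm6 of -0.14 ± 0.28 (exact permutation p = 0.7 for each). Both turned positive without WT replicate 3, to 0.075 and 0.086.

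Mcm7 (ENSMUSG00000029730, chr5:138164583-138172422, minus strand) was the only member with a higher mean in Top1mt-KO. Its log2 values were 8.26, 7.74 and 8.19 in WT and 7.78, 8.39 and 8.44 in KO. WT replicate 2 and KO replicate 1 formed a low pair, and the other 4 libraries lay close together. A log2 fold change of 0.14 ± 0.23 resulted (exact permutation p = 0.5), which became -0.021 without WT replicate 2. The exons of Mcm7 share 172 bases with the microRNA genes Mir25 and Mir93 on the same strand and 385 bases with Cops6 and Ap4m1 on the opposite strand, and the strand setting of the read counting is not given in the sources used here, so the split of these reads is uncertain.

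**Figure D2:**
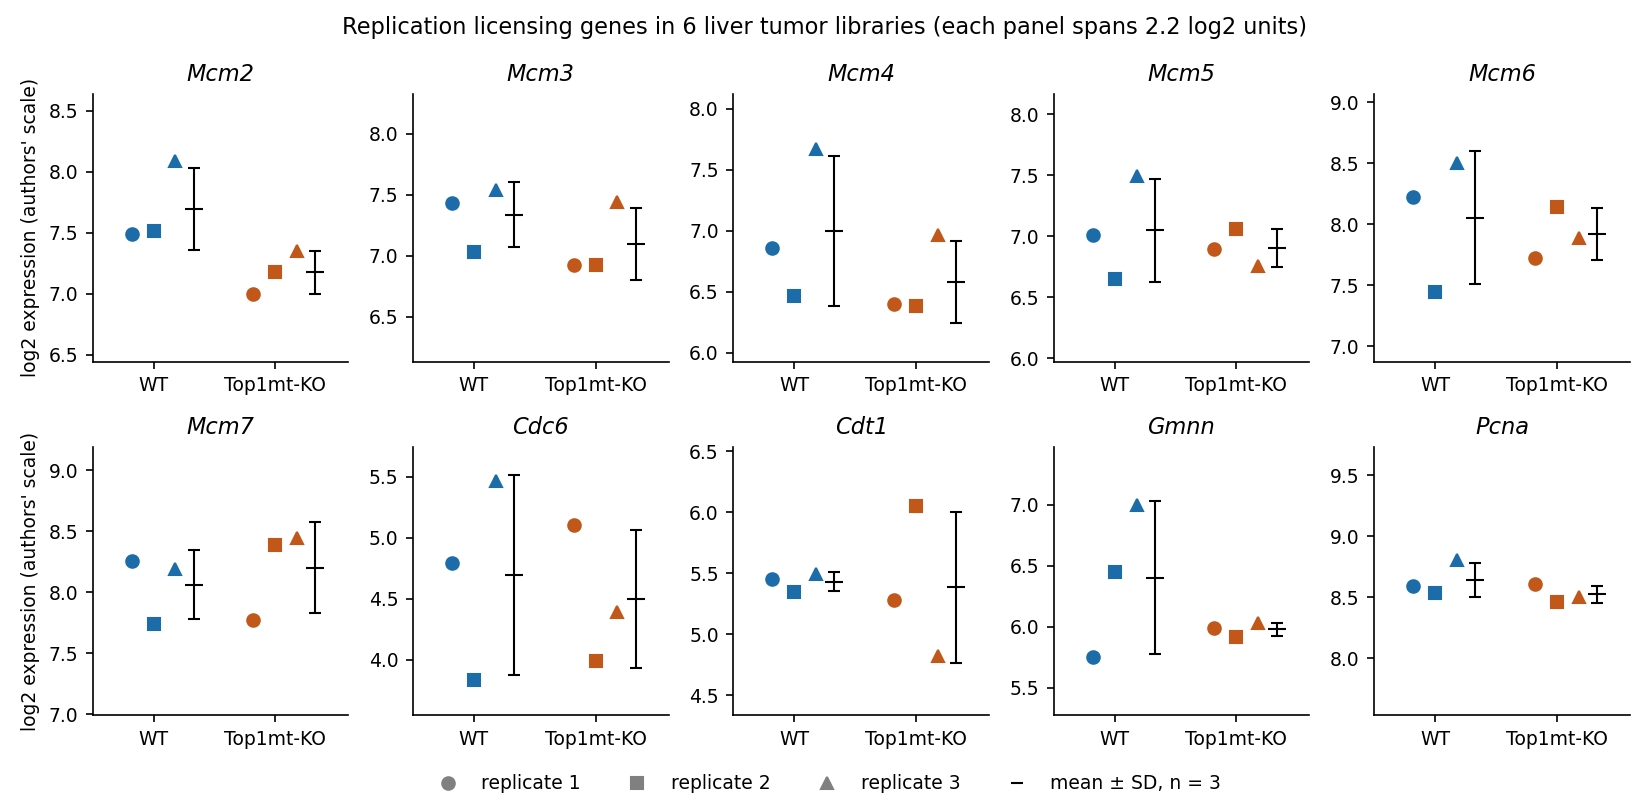
Log2 expression on the authors' scale (y axis) of the 10 licensing genes in WT and Top1mt-KO tumors (x axis), with 1 panel a gene. Circles, squares and triangles are replicates 1, 2 and 3, and bars give the mean ± SD of 3 libraries; the groups are apart in Mcm2 alone, and the blue triangle of WT replicate 3 is the highest point in 8 panels.

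Among the loading factors, Cdc6 had the largest SD of the 10 members. Cdc6 (ENSMUSG00000017499, chr11:98907801-98923940, plus strand), the ATPase that works with the origin recognition complex, had log2 values of 4.79, 3.83 and 5.46 in WT and 5.11, 3.99 and 4.40 in KO. High and low libraries occurred in both groups, over a range of 1.63, and the SD over the 6 libraries of 0.640 exceeded that of 76.7% of all genes tested. The 95% confidence interval of its log2 fold change, -0.20 ± 0.53, ran from -1.42 to 1.02 and includes a 2-fold change in either direction (exact permutation p = 0.8). Cdt1 (ENSMUSG00000006585, chr8:122568015-122573554, plus strand), which brings the Mcm ring to the origin, had log2 values of 5.46, 5.34 and 5.50 in WT and 5.28, 6.05 and 4.82 in KO. The WT libraries agreed within an SD of 0.079, while KO replicate 2 was the highest and KO replicate 3 the lowest of all 6, with an SD of 0.62. The group means were nearly equal, with a log2 fold change of -0.049 ± 0.37 (exact permutation p = 0.9).

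Gmnn (ENSMUSG00000006715, chr13:24751845-24761923, minus strand), the inhibitor of Cdt1, showed the reverse distribution of spread. Its log2 values were 5.75, 6.45 and 6.999 in WT and 5.99, 5.92 and 6.03 in KO. The KO libraries lay within an SD of 0.055, below WT replicates 2 and 3 and above WT replicate 1. Gmnn had a log2 fold change of -0.42 ± 0.34 (exact permutation p = 0.4), which was -0.12 without WT replicate 3 and -0.75 without WT replicate 1. Within a library, the log2 value of Cdt1 minus that of Gmnn came to -0.29, -1.11 and -1.50 across WT replicates 1 to 3 and to -0.71, 0.13 and -1.20 across KO replicates 1 to 3. Only KO replicate 2 had a positive value, and the groups overlapped over most of their range, with a difference in means of 0.37 (exact permutation p = 0.6).

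Pcna (ENSMUSG00000027342, chr2:132249162-132253314, minus strand) was the steadiest member. Its log2 values were 8.59, 8.54 and 8.80 in WT and 8.60, 8.46 and 8.50 in KO. All 6 libraries lay within a range of 0.339, and 7.42% of all genes tested had a smaller SD. Its log2 fold change of -0.12 ± 0.14 had a 95% confidence interval from -0.45 to 0.20, the narrowest of the 10 (exact permutation p = 0.3). Without WT replicate 3 it was -0.041. The genome holds the processed pseudogenes Pcna-ps1 and Pcna-ps2, so the assignment of some Pcna reads is uncertain.

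Over the 10 members, 0 passed an adjusted p of 0.05 by limma, as did 0.0% of all 22677 genes, where the smallest adjusted p was 0.938 and 985 genes had an unadjusted p under 0.05. Each member had an adjusted p of 0.999. The log2 fold change was negative in 9 of 10 members, 90.0%, against 52.3% of all genes, and the median was -0.17 against -0.015. The members were measured in the same 6 libraries and are not independent of each other. Without WT replicate 3, 6 of 10 members were negative, and their median was -0.029.

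Mcm2 stayed without overlap whichever library was left out, as it must, and further members joined it at shares of all genes that also rose. Leaving out KO replicate 1 added Mcm7, then higher in KO, and Pcna, then lower, with 21.5% of all genes not overlapping. Leaving out KO replicate 2 added Cdt1 (16.9% of all genes), and leaving out KO replicate 3 added Mcm3 and Mcm4 (15.9%). Without WT replicate 1 Gmnn joined (16.2%), without WT replicate 2 Mcm6 (18.3%), and without WT replicate 3 no member did (17.4%). Without both WT replicate 2 and KO replicate 1, 5 members did not overlap, Mcm2, Mcm6, Mcm7, Cdc6 and Pcna, against 33.7% of all genes, and Mcm7 was the 1 that was higher in KO.

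**Figure D3:**
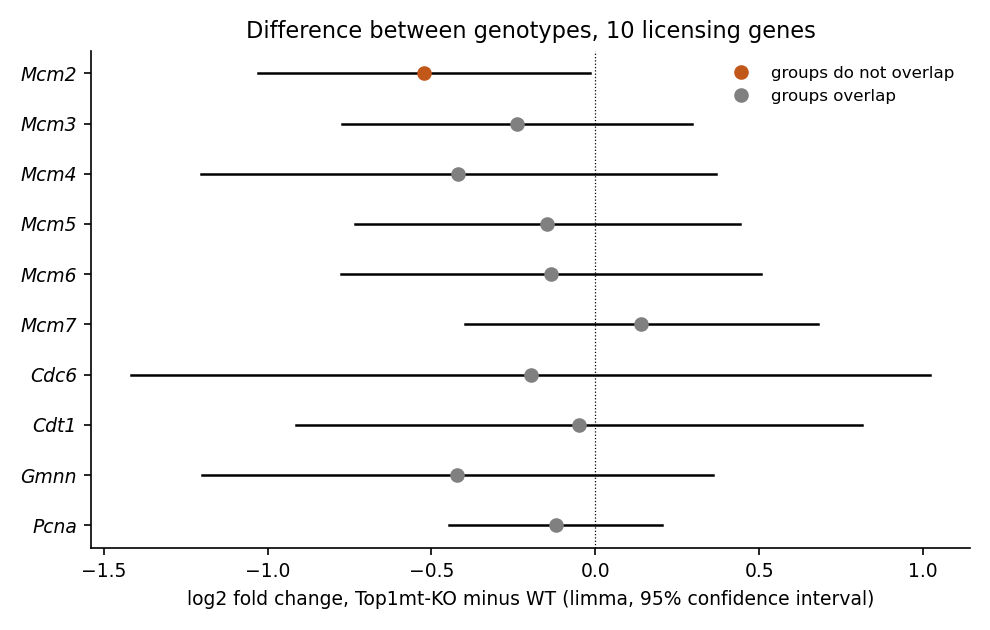
Log2 fold change between Top1mt-KO and WT tumors (x axis, points) with 95% confidence intervals from limma (lines) for the 10 licensing genes (y axis). The interval of Mcm2, from -1.03 to -0.016, is the only one of the 10 that does not include 0, and Pcna has the narrowest interval.

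The spread across libraries followed a shared pattern. WT replicate 3 was the highest library for 8 of the 10 members and for 5 of the 6 helicase genes, against 16.7% of all genes tested. In other replication lists, described below, it was the highest for 7 of 13 origin firing genes and 5 of 8 genes of nucleotide supply. It was the highest for 13 of 32 genes for polymerases and clamp loading and 4 of 12 further licensing genes. The counts were 6 of 19 for G1 to S regulators and 3 of 11 for ubiquitin ligases. The lowest library was WT replicate 2 for 4 members and KO replicate 2 for 3. Averaged over the members after each gene was centred on its mean, WT replicates 1 to 3 lay at 0.054, -0.23 and 0.49 on the log2 scale and KO replicates 1 to 3 at -0.16, -0.082 and -0.073. The WT group thus held both the highest and the lowest library, and the 3 KO libraries lay between them. For Mcm2 to Mcm7 alone the same means were 0.12, -0.28 and 0.49 in WT and -0.30, -0.077 and 0.050 in KO. Among these genes KO replicate 1, and not WT replicate 2, was narrowly the lowest library.

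Pearson's r between members over the 6 libraries was positive for 15 of the 15 pairs within Mcm2 to Mcm7, with a median of 0.618 and a range from 0.133 for Mcm2 and Mcm7 to 0.905 for Mcm5 and Mcm6. Among all 45 pairs 36 were positive, with a median of 0.508. Cdt1 stood apart, with 3 of 9 positive pairs and its lowest r, -0.406, with Mcm3. Gmnn had r = 0.808 with Mcm2 and -0.228 with Mcm7, and Cdc6 had r = 0.853 with Pcna. These coefficients describe 6 libraries that all pairs share, and WT replicate 3 is the high point of most of them.

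**Figure D4:**
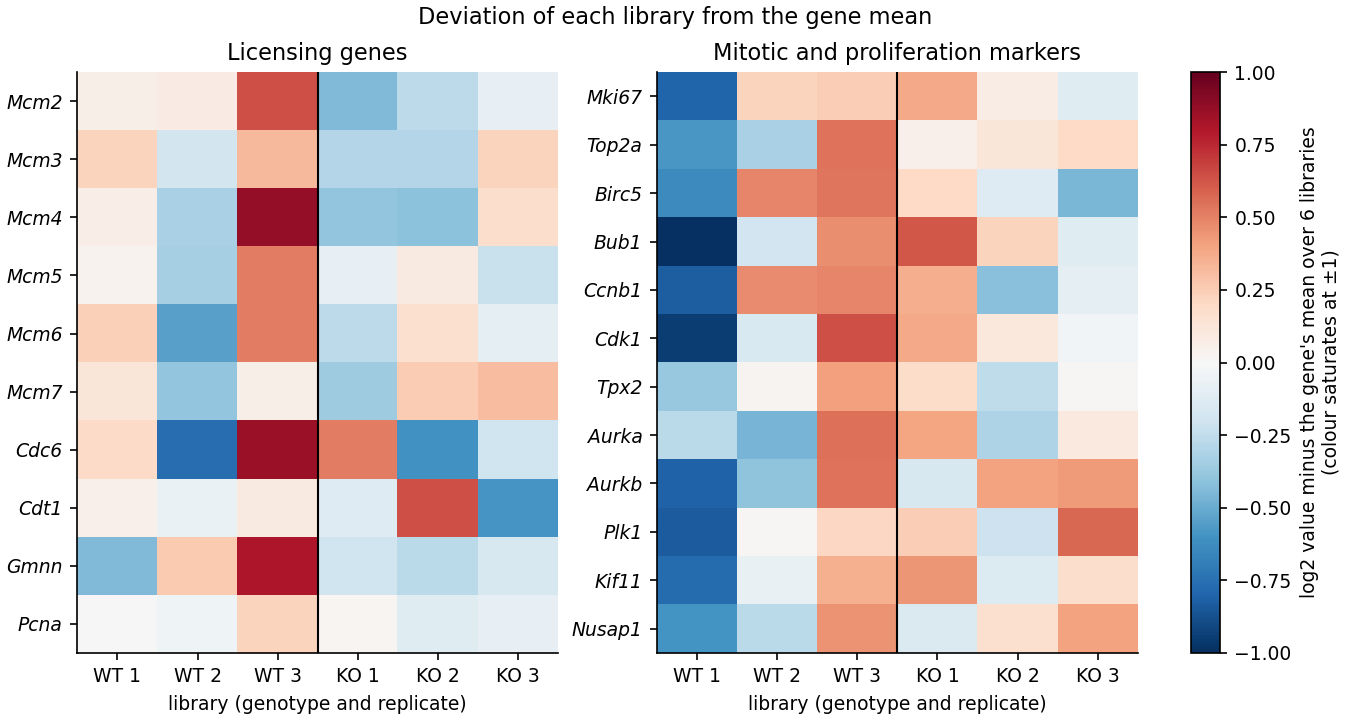
Log2 value minus the gene's mean over 6 libraries (colour, saturating at 1 log2 unit in either direction) for the 10 licensing genes and 12 mitotic and proliferation markers (rows) in each library (columns). WT replicate 3 is red in nearly all rows of both panels, while WT replicate 1 is near the mean or above it for 9 of the 10 licensing genes and blue for the 12 markers.

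Mitotic and proliferation markers did not follow the licensing genes in every library. Their mean centred log2 value was -0.70, -0.055 and 0.45 in WT replicates 1 to 3 and 0.25, -0.031 and 0.090 in KO replicates 1 to 3. WT replicate 1 was the lowest library for 11 of the 12 markers, whereas it was the lowest for 1 of the 10 licensing genes, Gmnn. WT replicate 3 was the highest for 8 of the 12, as it was for the licensing genes. Mki67, the antigen of cycling cells, had log2 values of 9.63, 10.6 and 10.7 in WT and 10.8, 10.5 and 10.3 in KO. Top2a, the topoisomerase that separates sister chromatids, had 8.60, 8.86 and 9.73 in WT and 9.24, 9.30 and 9.39 in KO. With log2 fold changes of 0.22 ± 0.29 and 0.25 ± 0.27, the means of Mki67 and Top2a were higher in KO, while those of 9 licensing genes were lower. This rested on WT replicate 1, without which the log2 fold change was -0.12 for Mki67 and 0.016 for Top2a. The difference between the lists was not tested. By staining, the paper reports fewer Ki67-positive cells in Top1mt-KO liver tumors. That is a count of cells by protein, and it was not compared with the RNA values here.

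Among 12 further licensing genes, which include the subunits of the origin recognition complex, 0 passed an adjusted p of 0.05 and the median log2 fold change was 0.0095, with 6 positive and 6 negative. Mcm10, which takes part in activating the loaded helicase, had the smallest unadjusted p of the replication lists. Its log2 values were 8.94, 8.73 and 9.13 in WT and 7.99, 8.21 and 8.33 in KO. Every KO library was below every WT library. It had a log2 fold change of -0.76 ± 0.17, with an unadjusted p of 0.00193 and an adjusted p of 0.938 by limma. At the other end of this list was Mcm9, a helicase of the same family that acts in recombination, with a log2 fold change of 0.31 ± 0.25, or 0.15 when KO replicate 3 and 0.46 when WT replicate 3 was left out.

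Of 13 origin firing genes, 0 passed the adjusted p, 6 were positive and 7 negative, with a median of -0.055. Cdc7, the kinase that phosphorylates loaded Mcm rings, had the lowest value, with log2 levels of 4.50, 5.01 and 4.51 in WT and 4.18, 2.81 and 4.49 in KO, where KO replicate 2 carried most of the log2 fold change of -0.85 ± 0.52, which was -0.34 without that library. Cdc45, which joins the Mcm ring in the active helicase, had the highest, at 0.45 ± 0.50, or -0.011 without WT replicate 2. Of 32 genes for polymerases and clamp loading, 17 were positive and 15 negative, with a median of 0.031. Chtf18, a subunit of an alternative loader of Pcna, had log2 values of 4.05, 4.44 and 4.28 in WT and 4.58, 4.72 and 4.83 in KO. All KO values lay above the WT values, a log2 fold change of 0.45 ± 0.35. The flap endonuclease Fen1, a partner of Pcna, was lowest at -0.91 ± 0.49, at log2 levels between 1.07 and 2.92, and was -0.58 without KO replicate 3.

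Of 11 genes for ubiquitin ligases that act on licensing factors, 6 were positive and 5 negative, with a median of 0.023. Dtl, which brings Pcna-bound Cdt1 to its ligase, had a log2 fold change of -0.54 ± 0.60, which ran from -1.04 to -0.098 with 1 library left out, without WT replicate 2 and WT replicate 3. Cdc20, an activator of the anaphase-promoting complex, the ligase that also degrades geminin, had 0.34 ± 0.36, or -0.022 without WT replicate 1. Of 8 genes of nucleotide supply, 6 were positive, with a median of 0.042, from -0.22 for the thymidine kinase Tk1 to 0.34 for the deoxycytidine kinase Dck. Without WT replicate 2 these were -0.36 for Tk1 and -0.068 for Dck. Of 19 regulators of the G1 to S transition, 10 were positive and 9 negative, with a median of 0.024. Tfdp2, a partner of E2F factors, had log2 values of 8.91, 8.95 and 8.67 in WT and 8.00, 8.52 and 8.61 in KO. Its groups did not overlap, at a log2 fold change of -0.46 ± 0.19 (unadjusted p 0.0442 and adjusted p 0.999 by limma), or -0.28 without KO replicate 1. E2f8, a repressing member of the E2F family, had the highest value, 1.17 ± 0.60, and Ccne1, the cyclin that acts at S phase entry, the lowest, -0.67 ± 0.40. E2f8 was 0.67 without KO replicate 3, 0.68 without WT replicate 2 and 1.75 without KO replicate 1, and Ccne1 was -0.28 without WT replicate 2 and -0.44 without KO replicate 3. Among the 12 proliferation markers 9 were positive, with a median of 0.26, from -0.26 for Birc5 to 0.48 for Bub1. With 1 library left out, Birc5 ran from -0.64 without WT replicate 1 to -0.053 without WT replicate 3, and Bub1 from 0.10 to 0.83 without the same libraries.

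Over these lists together, 0 of 107 genes passed an adjusted p of 0.05. The groups did not overlap in 6 genes that were lower in KO and in 1 that was higher, against 4.33% and 3.95% of all genes. The median of the 107 was 0.034, while that of the 10 licensing genes was -0.17. With the same libraries behind both medians, their difference was not tested.

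**Figure D5:**
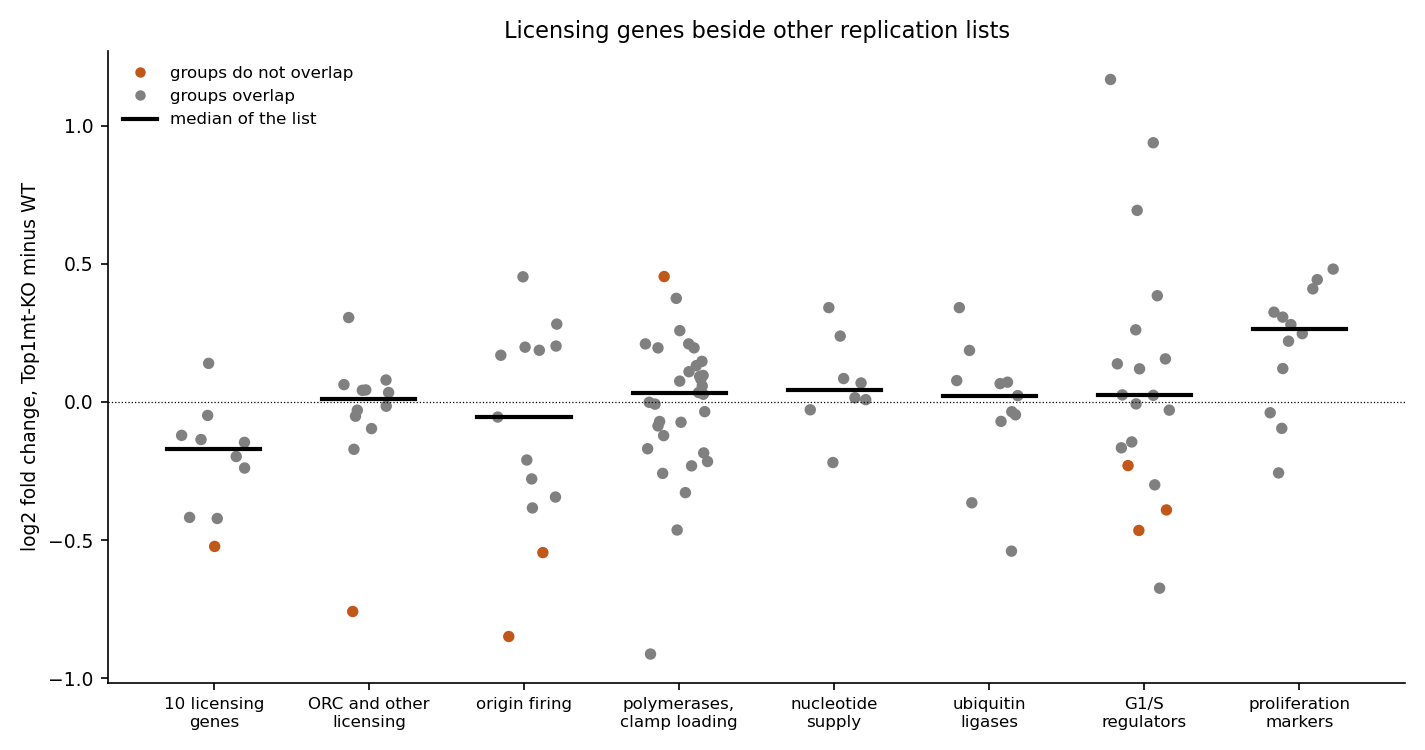
Log2 fold change between Top1mt-KO and WT tumors (y axis) of each gene (points) in the 10 licensing genes and 7 other replication lists (x axis), with black bars at the list medians. Orange points are genes whose 3 WT and 3 KO libraries do not overlap; the licensing genes have the lowest median, -0.17, and the proliferation markers the highest, 0.26, and the points of every list fall on both sides of 0.

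The genes most like the licensing genes were sought among 8412 other genes with an SD of at least 0.5 over the 6 libraries, by Pearson's r with the members' mean centred value. The 10 highest were Muc13, Mmd2, Cux2, Btbd19, Gm15726, Nfkbid, Slc15a5, Lrtm1, Amer2 and Igkj4, with r from 0.961 to 0.976. Among 8412 genes searched over only 6 libraries, unrelated genes can also reach such values, so these names are a description. All 10 had their highest value in WT replicate 3, and without that library r ran from 0.694 for Lrtm1 to 0.968 for Btbd19. Among the 107 genes of the other replication lists, r was above 0.5 for 35 and below 0 for 34. It was highest for Lrwd1, a companion of the origin recognition complex, at 0.923, followed by Recql4 at 0.894 and Wdhd1 at 0.893. It was lowest for Skp1a, a ubiquitin ligase subunit, at -0.765.

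Markers of other cells also differed between libraries. Neutrophil markers had a summed log2 level from 8.56 to 10.1 in WT and from 8.07 to 8.81 in KO, with the highest value in WT replicate 3, where the licensing genes peaked, and 7 of 8 had a negative log2 fold change. Macrophage markers ran from 12.6 to 13.8 in WT, again highest in WT replicate 3, and from 12.6 to 13.2 in KO. Hepatocyte markers, 7 of 8 of which were in the table, ran from 20.6 to 21.3 in WT and from 20.9 to 21.5 in KO. Their sum, dominated by Alb at a mean log2 value of 20.7, was lowest in WT replicate 3. Alb, Ttr and Asgr1 were lowest there, whereas Apoa1, Cps1, Hnf4a and Serpina1a were lowest in a KO library. Bile duct and progenitor markers ran from 12.0 to 12.9 in WT and from 11.9 to 12.7 in KO, and 3 of 8 lay lower in KO without overlap, among them Krt19 with a log2 fold change of -2.68. Stellate cell markers ran from 13.9 to 14.8 and from 13.8 to 14.2, endothelial markers from 12.8 to 13.0 and from 12.9 to 13.2, B and plasma cell markers from 8.54 to 9.19 and from 7.54 to 9.11, T and NK cell markers from 5.82 to 6.66 and from 6.43 to 6.78, in WT and KO respectively. Erythroid markers, 7 of 8 in the table, ran from 11.88 to 12.8 in WT and from 11.3 to 11.82 in KO, so the sums were only narrowly apart. Of the 7, 6 had a negative log2 fold change and 2 lay lower in KO without overlap, while Alas2 had 0.013. Lower values in KO without overlap occurred in 4.33% of all genes tested. Among the neutrophil markers the lowest mean log2 value was that of Ly6g, at 1.41. The part of these cells in the lower Mcm2 and in the high licensing values of WT replicate 3 was not tested.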

How the data were processed

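RNA-seq was done on 3 WT and 3 Top1mt-KO liver tumors, grouped and numbered by the sample titles. The table the authors deposited lists log2 values by gene symbol, with no counts, so limma was run on the log2 values and depth is unknown. The transform is not named. The paper's methods give Trimmomatic, BWA, a genome called Mm 8, unique reads, featureCounts and DESeq2. The submitters' processing notes list bcl2fastq 2.17, Trimmomatic 0.36, STAR 2.5.1, Subread, DESeq2 and GRCm38. The sources thus differ in aligner and build, and coordinates here come from GENCODE M21 and RefSeq on GRCm38, not from the table. The table has 3 columns without names, which were not used, and 5 symbols in more than 1 row, none of them a member.

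The genotype test was that of limma 3.58.1 under R 4.3.3 (lmFit, eBayes with a trend, Benjamini-Hochberg adjustment) over 22677 genes, and single genes by exact two-sided permutation over 20 regroupings. The procedure was tested on simulated data. The members and gene lists were chosen with earlier results of these data known. Genes named are the 10 members, Top1mt, Mki67, Top2a, the highest, the lowest and any with an unadjusted p under 0.05 in each replication list, and the 10 most like the members. Gm42418, Lrwd1, Recql4, Wdhd1, Skp1a, Krt19 and Ly6g were named after their values were seen. The 4 motifs were picked after these and other motifs had been looked at. Marker levels are log2 of the sum of linear values. Alternatives comprised a fit without trend, quantile normalization, no filter and a filter at the median, a replicate block, an adjusted p of 0.1, each library left out, and WT replicate 2 with KO replicate 1 left out, which was added after seeing the data. Deviations of same-numbered libraries from their group means correlated at -0.123, -0.0760 and 0.0520, which gives no sign that same-numbered libraries belong together.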

Additional observations from a re-analysis of the deposited data

How the results depend on the processing

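Across 13 alternatives 0 of the 10 licensing genes and 0 of the 107 other replication genes passed an adjusted p of 0.05 by limma (smallest 0.879 for a member). Over all genes, 4 passed with no filter on low values (smallest adjusted p 0.0189), and with 1 library left out 0 to 1, the 1 without KO replicate 1. The members not overlapping numbered 1 to 3 with 1 library left out, where 15.9% to 21.5% of all genes did not overlap, and 5 without WT replicate 2 and KO replicate 1 together, against 33.7%. The members' median of -0.17 ran from -0.39 without WT replicate 2 to -0.029 without WT replicate 3. With the replicate block 0 genes passed and the median stayed at -0.17; the replicate numbers do not pair the samples. Of the members 5 reversed, all with 1 library left out, over log2 fold changes from -0.63 to 0.19 for Cdc6 (-0.93 with both libraries left out), -0.38 to 0.23 for Cdt1, -0.35 to 0.075 for Mcm5, -0.44 to 0.086 for Mcm6 and -0.021 to 0.35 for Mcm7. So did Cdc20 (-0.022 to 0.70), Cdc45 (-0.011 to 0.72), Dck (-0.068 to 0.57, and -0.11 with both libraries left out) and Mki67 (-0.12 to 0.40). The causes were not tested. With 3 libraries a group and unknown depth, standard errors of the members' log2 fold changes ran from 0.14 to 0.53, and differences of that size could not be detected.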

Other observations

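Mcm7 and Mcm2, chosen after their values were seen as the members with the highest and the lowest log2 fold change, were compared within each library. The log2 value of Mcm7 exceeded that of Mcm2 by 0.77, 0.23 and 0.11 in WT replicates 1 to 3 and by 0.78, 1.21 and 1.09 in KO replicates 1 to 3. All 6 differences were positive, and the KO values lay above the WT values, although KO replicate 1 and WT replicate 1 were nearly equal. This difference averaged 0.37 ± 0.35 over WT and 1.03 ± 0.22 over KO libraries (SD, n = 3 each), 0.66 higher in KO, and the choice of the pair makes this a description. The within-library difference of Cdc6 and Cdt1 ran from -2.06 in KO replicate 2 to -0.034 in WT replicate 3, with no separation of the groups.

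Outside the genes of the licensing step, 3 regulators and firing genes with lower values in every KO library were named after their values were seen: Donson at -0.54, E2f1 at -0.39 and Tfdp1 at -0.23 on the log2 scale. Each had an adjusted p of 0.999 by limma. With Cdc7 and Tfdp2, 2 of 13 origin firing genes and 3 of 19 regulators showed this separation, against 4.33% of all genes tested. These shares were not tested. KO replicate 2 carried most of the value of Donson, which was -0.17 without that library, and E2f1 was -0.24 without KO replicate 1. E2f1 and Tfdp1 encode the partners of an activating E2F dimer, and Donson acts in the assembly of the replicative helicase. The list of 19 regulators that holds E2f1 and Tfdp1 had 10 positive and 9 negative genes, with a median log2 fold change of 0.024.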
